A study of Mus musculus with 28 samples.

Results

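The 7 genes described here, Myc, Mycl, Max, Mxd1, Mxd4, Mxi1 and Mnt, encode the MYC side of a network of transcription factors that share the partner MAX. They were taken by symbol from 2 tables of counts per gene, where each symbol stood on 1 of 55487 Ensembl genes. The counts come from bulk RNA-seq of sorted dendritic cells of the conventional lineage, taken from spleens of C57BL/6 mice, in 28 libraries that form 14 groups of 2 biological replicates. The cells were type 1 conventional dendritic cells (cDC1), type 2 conventional dendritic cells (cDC2) and a population that the labels call hybrid. The altered gene common to all mutant groups is Irf8, a transcription factor that cDC1 depend on. WT mice carried no altered allele, H/+ mice were Irf8 +32H/+, with 1 altered copy of an Irf8 enhancer at +32 kb, and H/H mice were Irf8 +32H/H, with 2 altered copies. Mice named here H/H Nfil3-/- were Irf8 +32H/H and lacked Nfil3, and mice named H/H Zeb2 -165D123 were Irf8 +32H/H with an altered Zeb2 enhancer at -165 kb. In experiment 1 (16 libraries, 8 groups) WT mice gave cDC1 and cDC2, while the H/+ and the H/H genotype each gave cDC1, cDC2 and hybrid populations. In experiment 2 (12 libraries, 6 groups) WT mice gave cDC1, the H/H and the H/H Nfil3-/- genotype each gave cDC1 and a hybrid population, and H/H Zeb2 -165D123 mice gave a hybrid population. The H/H enhancer change is thus shared by 5 of the 6 groups of experiment 2. The sort gates, the age of the mice and whether equal replicate numbers mark 1 animal are not given in the labels.

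MYC and MYCL (encoded by Mycl) are basic helix-loop-helix leucine zipper proteins that bind DNA as dimers with MAX, at E-box motifs, and activate genes of ribosome production, metabolism and growth. MXD1, MXD4, MXI1 and MNT dimerise with MAX in place of MYC, bind the same motifs and recruit SIN3 corepressors, so the network is usually described as a balance between activators and repressors on a shared partner. In dendritic cells Mycl is known as an IRF8-dependent gene that is highest in cDC1, where it takes the place that Myc has in proliferating progenitors.

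In the GENCODE M21 annotation of GRCm38, Mycl lies at chr4:122995652-123002485 on the plus strand, Myc at chr15:61985391-61990374 (plus), Max at chr12:76937269-76962201 (minus), Mxd1 at chr6:86647042-86669161 (minus), Mxd4 at chr5:34173883-34187720 (minus), Mxi1 at chr19:53310518-53375810 (plus) and Mnt at chr11:74830920-74845725 (plus). Exons of Mxd4 share 514 bases with Gm42846 and those of Mxi1 share 194 bases with Gm10197, both on the opposite strand, and these genes had at most 29 and 7 counts in any library. Whether the counting used strand is not given in the sources used here. The start sites of 4 members are shown because they hold a motif of the network or, for Mycl, belong to the member with the largest differences. RefSeq windows on GRCm38.p6, from 250 bases before to 50 bases after an annotated start, were found for 6 of the 7 members, in 8 windows, of which 3 belong to Mxi1. Each sequence runs 5′ to 3′ on the gene's own strand, and capitals mark a motif that a search of both strands found.
Mycl, chr4:122995681-122995980, plus strand, with the letters TATAAA in capitals: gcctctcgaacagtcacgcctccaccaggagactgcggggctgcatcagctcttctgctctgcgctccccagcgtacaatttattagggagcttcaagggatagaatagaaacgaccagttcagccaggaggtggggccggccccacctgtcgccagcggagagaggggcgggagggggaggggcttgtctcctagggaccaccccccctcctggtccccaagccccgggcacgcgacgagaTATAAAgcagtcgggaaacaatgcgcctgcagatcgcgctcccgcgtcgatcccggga
Max, chr12:76962199-76962498, minus strand, with the E-box CACGTG in capitals: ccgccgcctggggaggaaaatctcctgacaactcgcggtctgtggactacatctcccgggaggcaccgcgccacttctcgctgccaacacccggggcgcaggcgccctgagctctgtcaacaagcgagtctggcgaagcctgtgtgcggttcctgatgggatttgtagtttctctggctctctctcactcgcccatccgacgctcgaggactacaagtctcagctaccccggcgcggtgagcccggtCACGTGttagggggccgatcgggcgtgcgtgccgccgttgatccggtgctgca
Mxd4, chr5:34187661-34187960, minus strand, with the E-box CACGTG in capitals: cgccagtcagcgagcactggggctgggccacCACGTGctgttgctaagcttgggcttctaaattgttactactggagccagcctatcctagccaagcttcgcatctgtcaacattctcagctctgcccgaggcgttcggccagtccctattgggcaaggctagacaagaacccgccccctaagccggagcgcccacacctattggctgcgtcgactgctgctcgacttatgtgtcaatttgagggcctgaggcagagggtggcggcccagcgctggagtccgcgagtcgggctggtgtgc
Mnt, chr11:74830674-74830973, plus strand, with the E-box CACGTG in capitals: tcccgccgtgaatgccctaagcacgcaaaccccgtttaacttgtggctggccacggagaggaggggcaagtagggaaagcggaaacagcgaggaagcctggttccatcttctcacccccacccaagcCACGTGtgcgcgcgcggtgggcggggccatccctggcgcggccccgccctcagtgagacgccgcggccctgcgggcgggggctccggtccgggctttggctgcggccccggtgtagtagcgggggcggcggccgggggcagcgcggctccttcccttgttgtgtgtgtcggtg

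The E-box stood in 1 window each of Max, Mxd4 and Mnt, beginning 3 and 219 bases before the start in Max and Mxd4, and in none of the windows of Mycl, Mxd1 and Mxi1. Of all 32851 RefSeq windows of this length, 7.15% held it. The TATA motif stood in the Mycl window, beginning 8 bases before the RefSeq start, and 13.6% of all windows held it. That window lies wholly within the GENCODE span of Mycl, so the RefSeq start used is downstream of the GENCODE gene start at 122995652. A composite motif of ETS and IRF factors, GGAANNGAAA, was in 1 of the 3 Mxi1 windows and in 2.72% of all windows. An interferon response-like motif, GAAANNGAAA, was in no member window and in 3.44% of all windows. G or C made up 64.0% of the Mycl window and between 56.0% and 76.7% of the 8 windows. A match says only that these letters are present.

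Library totals were 23.4 to 38.2 M counts in experiment 1 and 17.5 to 22.7 M in experiment 2. Levels are CPM, counts per M counts of the library total after TMM scaling within an experiment, given as the value of replicate 1 and replicate 2 or as mean ± SD. Changes were called with edgeR's quasi-likelihood test at a Benjamini-Hochberg adjusted p under 0.05 over all genes tested, 16036 in experiment 1 and 14504 in experiment 2. A p-value here rests only on the spread between replicate libraries, with 2 libraries per group. That spread was estimated over all groups of an experiment together, so it also depends on groups outside a comparison. The 2 experiments were scaled separately, so levels set side by side across them were not tested. Irf8 itself was 2580 and 1960 CPM in WT cDC1, 1221 and 1091 in H/+ cDC1 and 837 and 831 in H/H cDC1 of experiment 1, with no overlap between the 3 genotypes, against 47.9 to 109 CPM in all cDC2. Nfil3 was 2.76 to 5.70 CPM in the 4 H/H Nfil3-/- libraries against 30.9 to 55.3 in the other 8 of experiment 2. In the 16 libraries of experiment 1, none of which lacked Nfil3, it was only 6.03 to 11.7 CPM. Zeb2 was 10.3 and 19.6 CPM in H/H Zeb2 -165D123 hybrid cells against 38.6 and 46.9 in H/H hybrid cells of experiment 2. The summed level of 10 cDC1 markers, Irf8 among them, was 6571 to 7802 CPM in WT cDC1, 3647 to 5257 in H/+ and H/H cDC1 and 488 to 641 in cDC2, and that of 9 cDC2 markers was 22.7 to 28.9, 47.4 to 158 and 962 to 1179. Hybrid cells held both lists, at 2111 to 4519 and 509 to 757 CPM. Since these are bulk samples, fewer cells of a type and less RNA per cell cannot be told apart.

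All 7 members passed the filter on low counts in both experiments. Levels of different genes were compared per kb of exon, counting all annotated exons of a gene. The length of the transcripts present in these cells was not measured, so orders, shares and ratios across genes are approximate. On this scale Mxi1 was the least abundant member in every group. In WT cDC1 of experiment 1 the order was Myc at 14.1 ± 3.35, Mycl at 13.8 ± 0.92, Max at 9.499 ± 0.98, Mxd1 at 7.42 ± 0.53, Mxd4 at 4.53 ± 0.69, Mnt at 2.02 ± 0.04 and Mxi1 at 0.982 ± 0.680 CPM per kb (SD, n = 2). In WT cDC2 Mycl was 2.87 ± 0.35 CPM per kb (SD, n = 2), below Myc, Max, Mxd1, Mxd4 and Mnt. Mycl varied most among the members in experiment 1, with a highest group mean 5.43 times the lowest, against 1.30 times for Mxd4 and 1.92 times for Myc. In experiment 2 the same ratio was 3.14 for Mycl, 2.69 for Max, 2.64 for Mxi1, 2.25 for Mxd1, 2.04 for Myc, 1.96 for Mnt and 1.48 for Mxd4. Replicates of Max and Mxi1 differed most, with biological coefficients of variation of 0.390 and 0.355 in experiment 1, against 0.103 to 0.180 for the other 5 members and a median of 0.150 over all genes tested. In experiment 2 these values were 0.340 for Max, 0.153 for Mxi1 and 0.108 to 0.126 for the other 5.

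**Figure D1:**
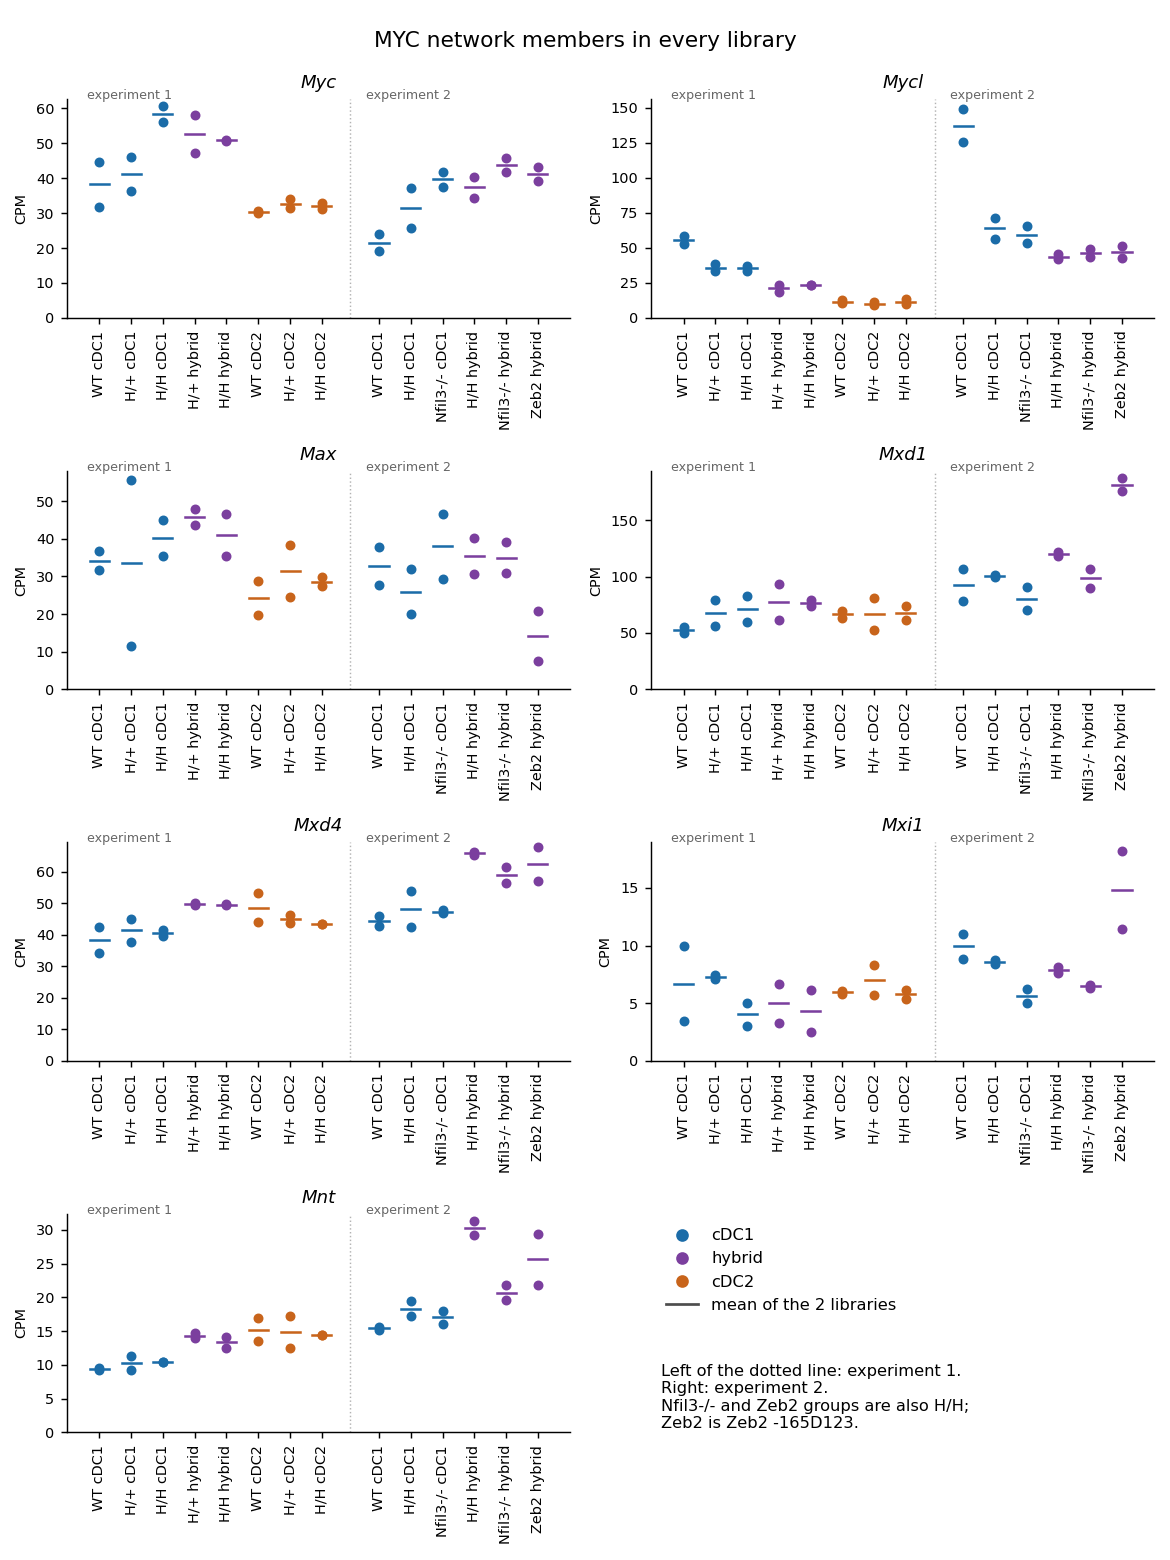
Level of each member in CPM (vertical axis, from 0) in the 14 groups (horizontal axis), with 1 point per library and a bar at the mean of the 2 libraries. Mycl falls from WT cDC1 through hybrid cells to cDC2, Max differs widely between the libraries of H/+ cDC1 (11.5 and 55.7 CPM), and Mxd1 and Mxi1 are highest in H/H Zeb2 -165D123 hybrid cells.

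Mycl, the activator tied to cDC1, showed the clearest differences of the 7, and was called in 10 of the 21 comparisons. In experiment 1 it was 53.1 and 58.3 CPM in WT cDC1 and 12.6 and 10.6 CPM in WT cDC2. The cDC1 libraries lay far above those of cDC2, and the 4.82-fold difference (log2 fold change 2.27, SE 0.17) had an edgeR adjusted p of 3.01e-08. In H/+ mice Mycl was 33.6 and 38.2 CPM in cDC1 against 11.5 and 8.97 in cDC2, a 3.50-fold difference (log2 1.81, edgeR adjusted p = 4.97e-07). In H/H mice it was 37.4 and 33.8 CPM in cDC1 against 10.1 and 13.2 in cDC2, a 3.04-fold difference (log2 1.61, edgeR adjusted p = 1.99e-06). In every genotype both cDC1 libraries were above both cDC2 libraries, and the smaller ratio in the altered genotypes lay on the cDC1 side, since the 6 cDC2 libraries stayed between 8.97 and 13.2 CPM.

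Within cDC1, Mycl was lower with the altered Irf8 enhancer. H/+ cDC1 were below WT cDC1 in both libraries by a log2 fold change of -0.63 (95% interval -0.97 to -0.30), but this missed the threshold in experiment 1 (edgeR adjusted p = 0.0608) and passed it with no filter on low counts (0.000869), with the replicate number as a block (0.0323) and in DESeq2 (0.00819). H/H cDC1 fell by 0.65 on the log2 scale against WT cDC1, to a mean of 35.6 ± 2.55 CPM from 55.7 ± 3.71 (SD, n = 2; edgeR adjusted p = 0.0274). This call was lost whichever of the 4 libraries was left out, with edgeR adjusted p between 0.0765 and 0.201 and log2 fold changes between -0.72 and -0.58. H/+ and H/H cDC1 overlapped, and their difference was -0.02 on the log2 scale (95% interval -0.35 to 0.32, edgeR adjusted p = 0.998). Irf8, in contrast, was separate in all 3 genotypes. In experiment 2 Mycl was 125 and 149 CPM in WT cDC1 and 71.3 and 56.6 CPM in H/H cDC1. The groups were far apart, and Mycl fell by 1.10 on the log2 scale (SE 0.15), 2.15-fold, with an edgeR adjusted p of 0.000196 that stayed between 0.000285 and 0.00297 with any 1 library left out. The cDC1 marker sum moved in the same comparison, from 7285 and 6571 CPM to 3647 and 3918. Irf8, the gene whose enhancer was altered, is part of that sum and went from 2418 and 1864 to 576 and 647 CPM. The cDC2 marker sum went from 22.7 and 26.9 to 141 and 158 CPM. The summed level of 6 B cell markers was higher in H/H cDC1 too, going from 32.8 and 43.8 to 186 and 173 CPM, and in experiment 1 from 30.3 and 27.2 to 114 and 119, with none of the 6 at 0 in these groups. Their part in the Mycl difference was not tested. In cDC2, Mycl differed between genotypes by -0.17 (H/+ against WT) and 0.01 (H/H against WT) on the log2 scale, with overlapping libraries and edgeR adjusted p of 0.997 and 1.00. The H/H effect in cDC1 minus that in cDC2 was -0.66 on the log2 scale (95% interval -1.15 to -0.18, edgeR adjusted p = 0.236).

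Hybrid cells held Mycl at a level between cDC1 and cDC2. In H/+ mice they had 23.8 and 18.7 CPM, which fell by 0.76 on the log2 scale against H/+ cDC1 (edgeR adjusted p = 0.00372) and was 2.07-fold above H/+ cDC2 (log2 1.05, edgeR adjusted p = 0.00039). The first of these calls was lost without replicate 2 of the H/+ hybrid cells (edgeR adjusted p = 0.0602). In H/H mice of experiment 1 hybrid cells had 23.5 CPM in both libraries, which fell by 0.60 on the log2 scale against H/H cDC1 (edgeR adjusted p = 0.0309) and was 2.01-fold above H/H cDC2 (log2 1.01, edgeR adjusted p = 0.000336). The hybrid libraries of either genotype overlapped with neither cDC1 nor cDC2 of that genotype. The difference from H/H cDC1 in experiment 1 did not pass with any 1 of the 4 libraries left out (edgeR adjusted p between 0.0846 and 0.171). In experiment 2 hybrid cells of H/H mice had 45.7 and 41.9 CPM against 71.3 and 56.6 in H/H cDC1. Mycl fell by 0.55 on the log2 scale there (edgeR adjusted p = 0.0298), a call that was lost without replicate 1 of H/H cDC1 (0.212) or without replicate 1 or 2 of the H/H hybrid cells (0.0864 and 0.218). H/H and H/+ hybrid cells overlapped and differed by 0.15 on the log2 scale (95% interval -0.20 to 0.49, edgeR adjusted p = 0.926).

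Mycl was not called for Nfil3 loss or for the Zeb2 enhancer change. Cells of H/H Nfil3-/- mice had 53.3 and 65.6 CPM in cDC1 and 48.9 and 43.1 CPM in hybrid cells, and H/H Zeb2 -165D123 hybrid cells had 51.5 and 42.6 CPM. Each of these groups overlapped with its H/H control. The log2 differences were -0.10 in Nfil3-/- cDC1 (95% interval -0.43 to 0.22), 0.07 in Nfil3-/- hybrid cells (-0.26 to 0.40) and 0.10 in Zeb2 -165D123 hybrid cells (-0.23 to 0.43), with edgeR adjusted p of 0.801, 0.834 and 0.80. Over the same libraries the cDC1 marker sum was 5523 and 5456 CPM in Nfil3-/- cDC1 against 3647 and 3918 in H/H cDC1, and 4224 and 4519 in Nfil3-/- hybrid cells against 2540 and 2469 in H/H hybrid cells. Replicate 2 of H/H Nfil3-/- cDC1 and of H/H Nfil3-/- hybrid cells held Xist RNA, at 169 and 193 CPM. No H/H cDC1 or H/H hybrid library of experiment 2 did, so the Nfil3 comparisons of all members are not balanced for it. Hybrid cells and cDC1 of Nfil3-/- mice did not overlap in Mycl (log2 -0.37, 95% interval -0.70 to -0.04), but the difference was not called (edgeR adjusted p = 0.22). In the order of group means of experiment 2, WT cDC1 stood apart from H/H cDC1, H/H and H/H Nfil3-/- cDC1 overlapped, and the 3 hybrid groups overlapped with each other below them.

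Myc, the activator best known from proliferating cells, was called in 4 comparisons, all of them rises. In experiment 1 it was 44.7 and 31.8 CPM in WT cDC1, 46.0 and 36.5 CPM in H/+ cDC1 and 56.1 and 60.5 CPM in H/H cDC1. The H/H libraries lay above all WT and H/+ libraries, and the 1.52-fold rise from WT to H/H cDC1 (log2 0.61, SE 0.15) had an edgeR adjusted p of 0.0331. The B cell marker sum given above, 30.3 and 27.2 against 114 and 119 CPM, moved in the same comparison, and its part in the Myc rise was not tested. The call was lost without replicate 2 of WT cDC1 (0.363) and without replicate 1 or 2 of H/H cDC1 (0.106 and 0.182). H/H against H/+ cDC1 gave a log2 difference of 0.50 that was not called (edgeR adjusted p = 0.326; 0.0223 with no filter on low counts). In experiment 2 Myc was 24.0 and 19.0 CPM in WT cDC1 and 25.7 and 37.2 CPM in H/H cDC1. The libraries did not overlap, and the log2 difference of 0.55 (95% interval 0.18 to 0.91) missed the threshold with an edgeR adjusted p of 0.0783. It passed with both experiments in 1 fit (0.00208), with no filter on low counts (0.0215) and without replicate 1 of H/H cDC1 (0.0107). From WT to H/H cDC1, the log2 difference of Myc thus had the opposite sign to that of Mycl in both experiments. For Myc, the H/H effect in cDC1 minus that in cDC2 was 0.53 on the log2 scale (edgeR adjusted p = 0.373).

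Between cell types, Myc was lowest in cDC2, where the 6 libraries of 3 genotypes lay between 30.2 and 34.0 CPM. It was 1.82-fold higher in H/H cDC1 than in H/H cDC2 (log2 0.86, edgeR adjusted p = 0.000409), while WT and H/+ cDC1 were above their cDC2 by 0.34 and 0.33 on the log2 scale without a call (edgeR adjusted p = 0.09 and 0.0995). Leaving out replicate 2 of WT cDC1 or replicate 2 of H/+ cDC1 turned these into calls (0.0112 and 0.042). Hybrid cells had 47.1 and 58.2 CPM in H/+ mice and 50.6 and 51.1 CPM in H/H mice. All 4 lay above all cDC2 libraries, with rises of 1.61-fold in H/+ (log2 0.69, edgeR adjusted p = 0.00512) and 1.59-fold in H/H mice (log2 0.67, edgeR adjusted p = 0.00462). The H/+ rise was not called without replicate 2 of the H/+ hybrid cells (0.0709). Against cDC1 of the same genotype, Myc in hybrid cells differed by 0.35 on the log2 scale in H/+ mice, by -0.20 in H/H mice of experiment 1 and by 0.25 in H/H mice of experiment 2, with no call (edgeR adjusted p = 0.14, 0.526 and 0.383). The B cell marker sum of experiment 1 was 109 and 105 CPM in H/+ hybrid cells against 64.9 and 58.8 in H/+ cDC2. In H/H mice it was 136 and 174 in hybrid cells and 114 and 119 in cDC1, against 58.0 and 62.7 in cDC2. In WT mice it was lower in cDC1, at 30.3 and 27.2 against 71.0 and 67.1 in cDC2. Its part in the Myc differences from cDC2 was not tested.

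In experiment 2 Myc was 37.4 and 41.9 CPM in H/H Nfil3-/- cDC1, 34.3 and 40.5 in H/H hybrid cells, 41.9 and 45.9 in H/H Nfil3-/- hybrid cells and 39.1 and 43.3 in H/H Zeb2 -165D123 hybrid cells. All 5 H/H groups lay above the WT cDC1 libraries. Nfil3-/- cells did not overlap with their H/H controls in cDC1 or in hybrid cells, but the log2 differences of 0.33 (95% interval -0.03 to 0.70) and 0.23 (-0.13 to 0.59) were not called (edgeR adjusted p = 0.36 and 0.452). Zeb2 -165D123 hybrid cells overlapped with H/H hybrid cells (log2 0.14, edgeR adjusted p = 0.732). The Nfil3 effect did not differ detectably between hybrid cells and cDC1 for Myc (-0.10, 95% interval -0.61 to 0.41) or for Mycl (0.17, -0.29 to 0.64), with an edgeR adjusted p of 1.00 for both.

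The Mycl share of the summed Myc and Mycl level per kb of exon differed between cell types and genotypes. In experiment 1 it was 44.4% and 55.2% in WT cDC1, 33.0% and 41.4% in H/+ cDC1 and 31.0% and 27.3% in H/H cDC1. The WT libraries lay above all others, and the H/H libraries below all WT and H/+ cDC1 libraries. Hybrid cells had 17.8% to 25.4% and cDC2 had 15.1% to 21.9%, and these ranges overlapped. In experiment 2 the share was 77.9% and 84.0% in WT cDC1, 65.2% and 50.6% for H/H cDC1, 49.0% and 51.3% in H/H Nfil3-/- cDC1 and 38.7% to 47.2% in the 6 hybrid libraries. The share was thus higher in cDC1 than in hybrid cells of both experiments, and it was higher in experiment 2 in each group measured in both. The summed level of Myc and Mycl was 27.9 ± 2.44 CPM per kb in WT cDC1 of experiment 1, against 30.3 ± 0.53 for H/H cDC1 and 14.03 ± 0.26 for WT cDC2 (SD, n = 2), and the WT and H/H cDC1 libraries were 29.6 and 26.2 against 29.9 and 30.6. In experiment 2 the sum was 41.9 ± 2.83 CPM per kb in WT cDC1 and 27.4 ± 0.43 in H/H cDC1 (SD, n = 2). These shares and sums are a description and were not tested.

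**Figure D2:**
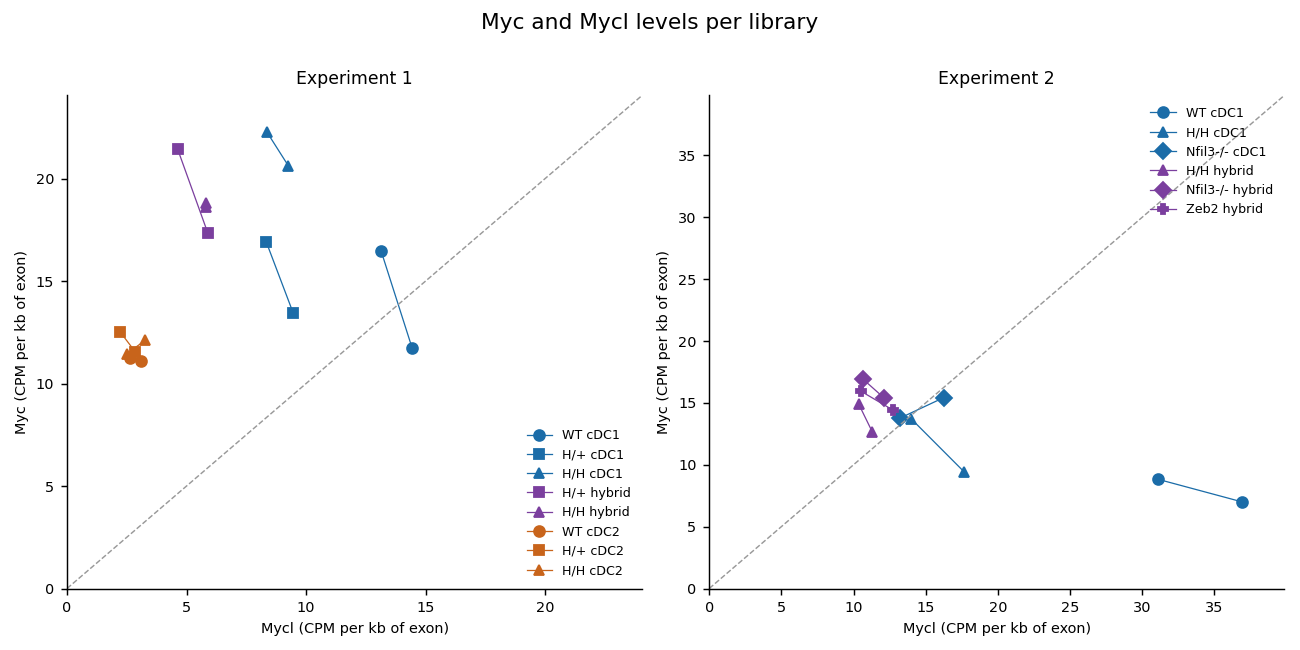
Myc (vertical axis) against Mycl (horizontal axis), both in CPM per kb of exon, with 1 point per library, a thin line joining the 2 libraries of a group, and a dashed line where both are equal. WT cDC1 stand to the right in both experiments (13.1 and 14.4 CPM per kb of Mycl in experiment 1, 31.1 and 36.9 in experiment 2), and cDC2 and hybrid cells of experiment 1 lie above the dashed line.

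Max, which encodes the partner shared by the other members, was called in no comparison, and its replicates differed widely. In fits limited to the groups compared, 3 comparisons with cDC2 passed (edgeR adjusted p of 0.0386 for WT cDC1, 0.0197 for H/H cDC1 and 0.0151 for H/H hybrid cells), each with Max lower in cDC2. It was 11.5 and 55.7 CPM in H/+ cDC1, from 318 and 1644 counts, so that these 2 libraries spanned the whole range of experiment 1. The other 14 libraries of experiment 1 lay between 19.7 and 47.9 CPM. Leaving out replicate 2 of H/+ cDC1 gave a call for Max against WT cDC1 (a log2 fold change of -1.58 and an edgeR adjusted p of 0.0242 against WT cDC1), and also against H/+ cDC2, H/H cDC1 and H/+ hybrid cells, and leaving out replicate 1 gave a positive log2 fold change of 0.70 against WT cDC1. Against H/+ cDC2, Max in H/+ cDC1 was called by edgeR in both cases and in opposite directions, at -1.45 on the log2 scale without replicate 2 and at 0.83 without replicate 1. In experiment 2 Max was 20.9 and 7.49 CPM in H/H Zeb2 -165D123 hybrid cells against 30.6 and 40.3 in H/H hybrid cells. The libraries did not overlap, and the log2 difference of -1.34 (95% interval -2.54 to -0.13) was not called (edgeR adjusted p = 0.261). It was called without replicate 1 of the Zeb2 -165D123 hybrid cells, at -2.24 (edgeR adjusted p = 0.0307). The other 5 groups of experiment 2 lay between 19.9 and 46.7 CPM and overlapped with each other.

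Of the 4 antagonists, Mnt followed the cell type most closely. MNT is the most widely expressed of the MAX-binding repressors. In experiment 1 it was 9.47 and 9.20 CPM in WT cDC1, 9.20 and 11.2 in H/+ cDC1 and 10.5 and 10.4 in H/H cDC1, against 13.5 and 16.9 CPM in WT cDC2, 17.2 and 12.4 in H/+ cDC2 and 14.5 and 14.4 in H/H cDC2. All 6 cDC1 libraries lay below all 6 cDC2 libraries. Mnt was lower in cDC1 by log2 fold changes of -0.71, -0.54 and -0.47 in WT, H/+ and H/H mice (edgeR adjusted p = 0.00252, 0.0167 and 0.0357). The summed level of 7 macrophage markers was 70.0 to 107.5 CPM in these cDC1 libraries and 215 to 343 CPM in these cDC2 libraries. Its part in the Mnt differences was not tested. The H/+ call was lost without replicate 1 of H/+ cDC1 (0.136) or replicate 1 of H/+ cDC2 (0.251). The H/H call was lost with any 1 of its 4 libraries left out (0.105 to 0.128) and in DESeq2 (0.0541). Hybrid cells had 14.7 and 13.99 CPM in H/+ and 12.6 and 14.1 in H/H mice, above every cDC1 library. In experiment 1 this difference from cDC1 was not called (log2 0.49 and 0.35, edgeR adjusted p = 0.057 and 0.243), except in H/+ mice without replicate 2 of H/+ cDC1 (0.0473). In experiment 2 Mnt was 29.3 and 31.3 CPM in H/H hybrid cells against 19.4 and 17.2 in H/H cDC1. The groups were apart, with a 1.65-fold rise (log2 0.73, edgeR adjusted p = 0.00595) that missed the threshold without replicate 2 of the hybrid cells (0.0639). In this comparison the macrophage marker sum was 200 and 139 CPM in hybrid cells against 66.8 and 57.5 in cDC1, and in experiment 1 it was 272 and 307 against 91.8 and 71.2, with none of its 7 markers at 0, and its part in the Mnt difference was not tested. With both experiments in 1 fit the hybrid against cDC1 difference in H/H mice was 0.53 on the log2 scale (edgeR adjusted p = 0.00189). Nfil3-/- hybrid cells had 21.9 and 19.6 CPM, below both H/H hybrid libraries, and the log2 difference of -0.55 (95% interval -0.88 to -0.22) was not called (edgeR adjusted p = 0.0607; 0.0112 with only these groups in the fit).

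Mxd4, a repressor of the MXD family linked to differentiated cells, varied least. In experiment 1 it was 42.6 and 34.3 CPM in WT cDC1 and 53.3 and 43.9 CPM in WT cDC2, and it was lower in cDC1 by a log2 fold change of -0.34 (edgeR adjusted p = 0.038). The call was lost without replicate 2 of WT cDC1 (0.343), without replicate 1 of WT cDC2 (0.34) and with only these groups in the fit (0.0981), and the same comparison in H/+ and H/H mice gave -0.12 and -0.10 with no call (edgeR adjusted p = 0.475 and 0.562). Hybrid cells of experiment 1 had 49.4 to 50.2 CPM, above all 6 cDC1 libraries, but without a call (log2 0.27 in H/+ and 0.29 in H/H mice, edgeR adjusted p = 0.176 and 0.202). In experiment 2 it was 65.3 and 66.2 CPM in H/H hybrid cells against 42.4 and 54.0 in H/H cDC1, and rose 1.36-fold (log2 0.45, edgeR adjusted p = 0.0427). This call was lost with the replicate block (0.06), with only these groups in the fit (0.0745) and without replicate 1 of H/H cDC1 (0.274) or replicate 1 or 2 of the hybrid cells (0.166 and 0.194). With both experiments in 1 fit the difference was 0.35 on the log2 scale (edgeR adjusted p = 0.00674). The macrophage marker sums given for Mnt belong to the same libraries, and their part in the Mxd4 differences from cDC1 was not tested, for hybrid cells or for cDC2. Hybrid cells of the 2 other genotypes had 56.4 to 67.7 CPM and overlapped with each other.

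Mxd1, the repressor known to rise as myeloid cells differentiate, was the most abundant antagonist per kb of exon. In experiment 1 it was 49.8 and 55.1 CPM in WT cDC1 and 52.9 to 93.4 CPM in the other 14 libraries, with no comparison called (WT cDC1 against WT cDC2 passed only with those groups alone in the fit, at 0.0379 by edgeR, adjusted). In experiment 2 it was 176 and 187 CPM in H/H Zeb2 -165D123 hybrid cells, 118 and 121 in H/H hybrid cells, 107 and 89.8 in H/H Nfil3-/- hybrid cells, 99.5 and 102 in H/H cDC1, 78.3 and 107 in WT cDC1 and 90.3 and 70.7 in H/H Nfil3-/- cDC1. The Zeb2 -165D123 libraries stood above all 10 others, and Mxd1 rose 1.52-fold over H/H hybrid cells (log2 0.60, SE 0.15, edgeR adjusted p = 0.0354). Mxi1, a further MXD-type repressor, rose in the same comparison, from 7.66 and 8.18 CPM to 11.4 and 18.2 CPM, which was 1.88-fold (log2 0.91, SE 0.22, edgeR adjusted p = 0.0275). The counts behind Mxi1 were 141 and 145 against 199 and 401. The Mxd1 call was lost with any 1 of the 4 libraries left out (0.105 to 0.28) and with the replicate block (0.0537). The Mxi1 call was lost without replicate 2 of the Zeb2 -165D123 cells (0.39), without replicate 1 or 2 of the H/H hybrid cells (0.253 and 0.129) and with a term for libraries that hold Xist RNA (0.088).

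In that comparison the summed level of 7 macrophage markers was 500 and 555 CPM in the Zeb2 -165D123 hybrid cells against 200 and 139 in the H/H hybrid cells, with C1qb at 156 and 159 against 63.6 and 42.4 CPM, and none of the 7 was at 0 in either group. The erythroid marker sum was 176 and 122 against 101 and 22.4 CPM, and replicate 2 of the Zeb2 -165D123 cells held Xist RNA while both H/H hybrid libraries did not. Their part in the Mxd1 and Mxi1 rises was not tested. C1qb was chosen after its values were seen. Elsewhere Mxi1 was low, at 2.54 to 9.98 CPM over 72 to 305 counts in experiment 1, and each group of that experiment overlapped with the next in the order of group means. In experiment 2 each of the 6 groups stood apart from the next, led by the Zeb2 -165D123 hybrid cells. Some gaps were small, with WT cDC1 down to 8.84 and H/H cDC1 up to 8.71 CPM. Likewise H/H cDC1 went down to 8.40 and H/H hybrid cells up to 8.18 CPM. Mxi1 was called in 1 comparison only, that of Zeb2 -165D123 with H/H hybrid cells. In H/H Nfil3-/- cDC1 it was 6.22 and 5.002 CPM against 8.398 and 8.71 in H/H cDC1, apart but not called (log2 -0.61, edgeR adjusted p = 0.19).

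Per kb of exon, the summed level of Mxd1, Mxd4, Mxi1 and Mnt was 0.494 and 0.584 times that of Myc and Mycl in WT cDC1 of experiment 1, and 0.524 to 0.740 times in H/+ and H/H cDC1. In cDC2 it was 1.14 to 1.47 times, above every cDC1 and hybrid library of that experiment. Hybrid cells had 0.712 to 0.977 times, a range that overlapped with that of cDC1. In experiment 2 the ratio was 0.528 and 0.574 in WT cDC1, 0.904 and 0.929 for H/H cDC1, 0.860 and 0.624 in H/H Nfil3-/- cDC1, 1.33 and 1.30 in H/H hybrid cells, 1.02 and 0.888 in H/H Nfil3-/- hybrid cells and 1.504 and 1.53 in H/H Zeb2 -165D123 hybrid cells. WT cDC1 had the lowest and Zeb2 -165D123 hybrid cells the highest ratio of experiment 2, and Nfil3-/- hybrid cells lay below both H/H hybrid libraries. The ratio describes RNA and was not tested. It leaves out the further network factors Mxd3 and Mga. These were 3.27 and 2.13 CPM per kb in WT cDC1 of experiment 1, where Mnt was 2.02. Whether the ratio is above 1 thus depends on the members summed.

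**Figure D3:**
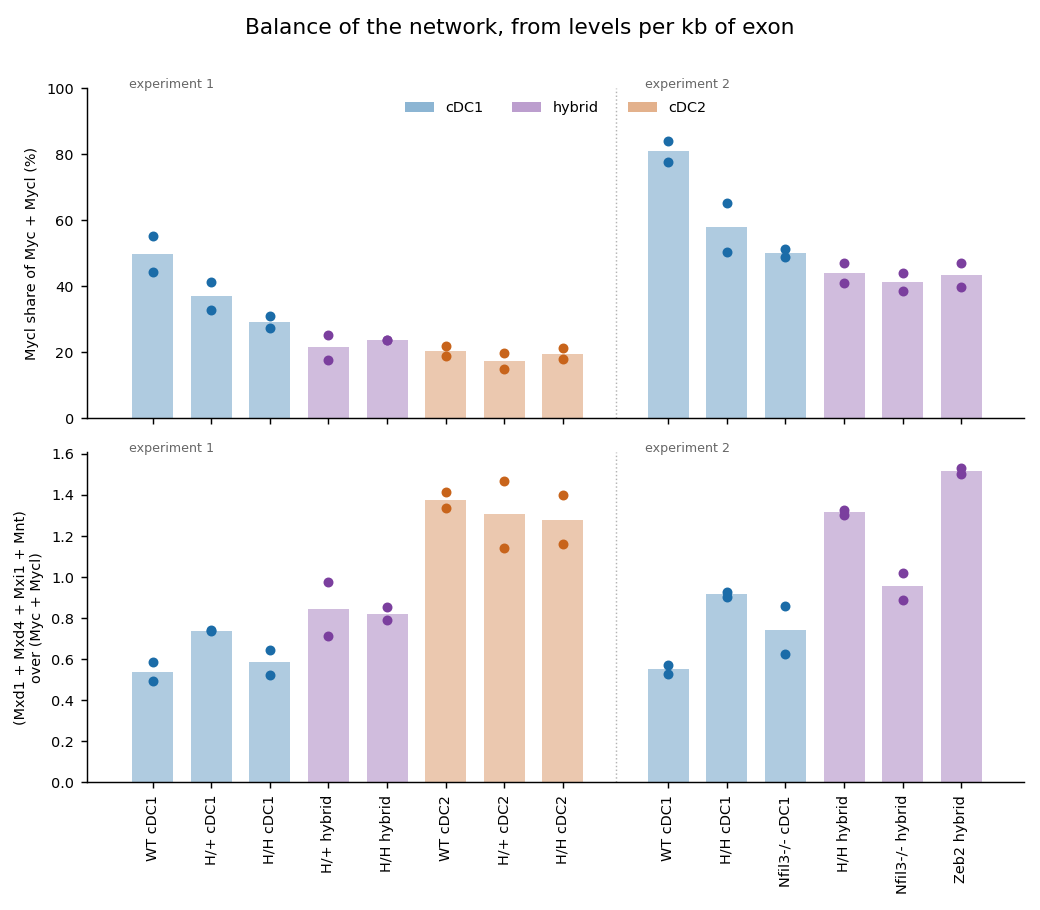
Upper panel, the Mycl share in percent of the summed Myc and Mycl level per kb of exon. Lower panel, the ratio of summed Mxd1, Mxd4, Mxi1 and Mnt to summed Myc and Mycl per kb of exon. The horizontal axis holds the 14 groups, with bars at the mean and points for the 2 libraries. The Mycl share is highest in WT cDC1 of both experiments, and the ratio is above 1 in all 6 cDC2 libraries and in experiment 2 in both libraries of H/H and of H/H Zeb2 -165D123 hybrid cells, while both H/H hybrid libraries of experiment 1 are below 1.

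In WT cDC1 against WT cDC2, 3 of 7 were called (edgeR; Mycl up, Mxd4 and Mnt down), where 44.0% of all genes were. In H/+ mice the same comparison called 2 (Mycl up, Mnt down; 38.3% of all genes), and in H/H mice 3 (Myc and Mycl up, Mnt down; 36.7%). For the altered enhancer in cDC1 of experiment 1, 0 members were called in H/+ against WT (1.47% of all genes; 1 member at an unadjusted p under 0.05 and 1 in DESeq2), 2 in H/H against WT (4.17%) and 0 in H/H against H/+ (0.281%; 1 member at an unadjusted p under 0.05). In cDC2, 0 members were called in H/+ against WT (0.0249%) and in H/H against WT (0.0811%), with 0 at an unadjusted p under 0.05 and 0 called by DESeq2.

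Hybrid cells against cDC1 gave 1 call of 7 in H/+ mice (Mycl down; 16.5% of all genes), 1 in H/H mice of experiment 1 (Mycl down; 7.85%) and 3 in H/H mice of experiment 2 (Mycl down, Mxd4 and Mnt up; 12.5%). Against cDC2 they gave 2 calls in H/+ (Myc and Mycl up; 19.0%) and 2 in H/H mice (Myc and Mycl up; 25.4%). H/H against H/+ hybrid cells gave 0 calls (0.131%; 0 at an unadjusted p under 0.05 and 0 in DESeq2). H/H against WT cDC1 in experiment 2 gave 1 call (Mycl down; 6.32%). Nfil3 loss gave 0 calls in cDC1 (3.03%) and 0 in hybrid cells (3.73%), with 1 member at an unadjusted p under 0.05 and 0 called by DESeq2 in each, and Nfil3-/- hybrid cells against Nfil3-/- cDC1 gave 0 (5.28%; 2 at an unadjusted p under 0.05). The Zeb2 enhancer change in hybrid cells gave 2 calls (Mxd1 and Mxi1 up; 4.03%). No member passed in the difference between the Nfil3 effects (0.00689% of all genes) or in the cDC1 effect of H/H minus its cDC2 effect (1.90%; 2 members at an unadjusted p under 0.05). Comparisons that share a group, such as H/H hybrid cells against H/H cDC1 and H/H cDC1 against WT cDC1, are not independent. The median log2 fold change of the 7 members was 0.18 in WT cDC1 against cDC2 and 0.16 in H/H against WT cDC1 of experiment 1, beside -0.07 and 0.004 over all genes tested.

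**Figure D4:**
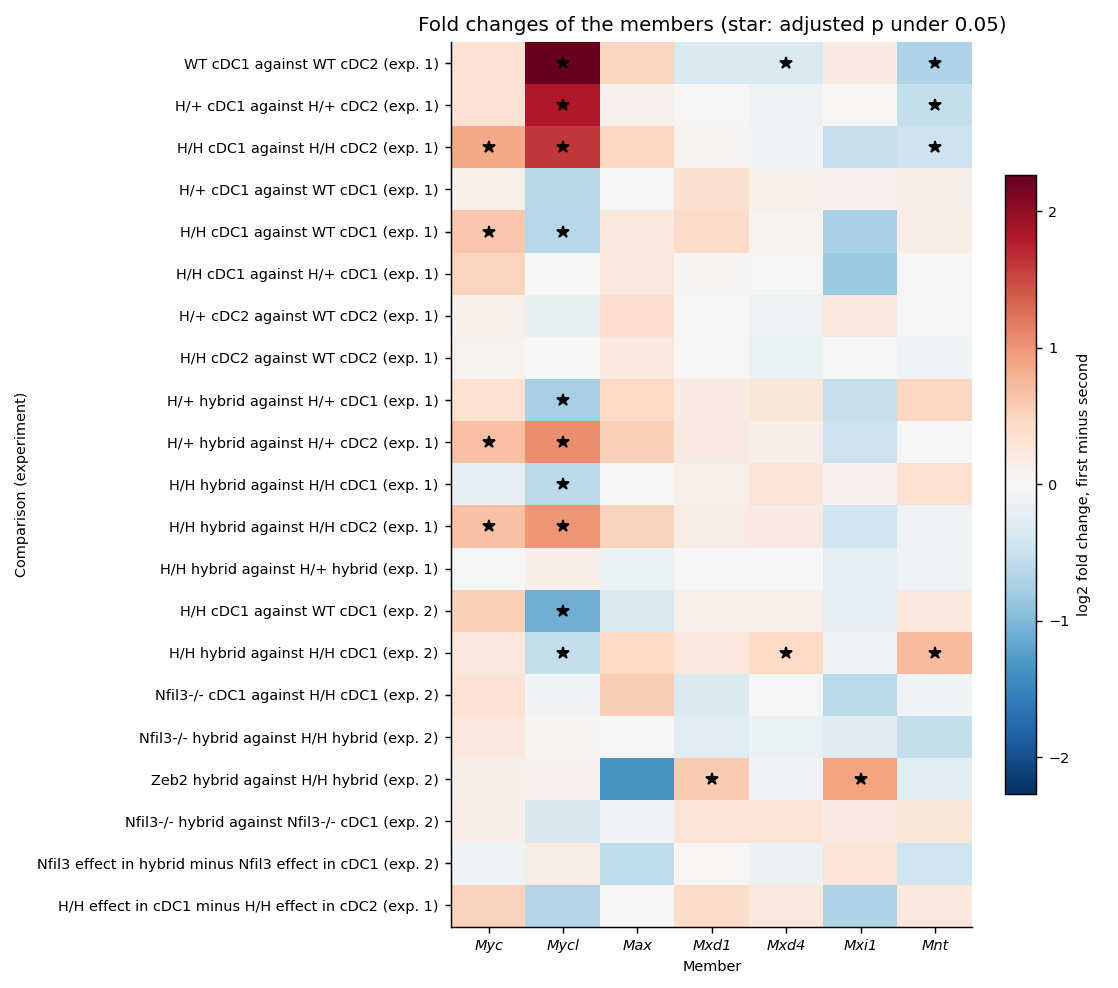
Log2 fold change (colour, first group minus second) of the 7 members (columns) in the 21 comparisons (rows), with a star where the edgeR adjusted p was under 0.05. Mycl carries 10 of the 22 stars, red in the comparisons with cDC2 and blue where H/H cDC1 or hybrid cells are set against WT cDC1 or cDC1.

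Of 6 further factors of the network, Mycn had at most 4 counts and Mlxipl at most 6 in any library and neither passed the filter, while Mxd3, Mga, Mlx and Mlxip were tested. Mlx, a MAX-like partner of the glucose-sensing factors, was 30.6 ± 0.36 CPM in WT cDC1 against 20.8 ± 0.57 CPM in their cDC2 (SD, n = 2), a log2 fold change of 0.56 (edgeR adjusted p = 0.000838). Mlxip, which encodes MondoA, was 29.5 ± 0.37 CPM in H/H hybrid cells against 17.2 ± 1.24 in H/H cDC2 (SD, n = 2; log2 0.78, edgeR adjusted p = 0.000328). Of 23 MYC cofactors and turnover factors, 7 were higher and 6 lower in WT cDC1 than in WT cDC2, where 44.0% of all genes were called, and 1 was higher and 0 lower in H/H than in WT cDC1 of either experiment (4.17% and 6.32% of all genes). That 1 was Mycbp2, a ubiquitin ligase named for binding MYC, which was 41.3 ± 5.04 CPM in WT cDC1 of experiment 1, where H/H cDC1 had 64.1 ± 0.54 and H/H hybrid cells 107 ± 9.33 CPM, against 199 ± 14.1 in WT cDC2 (SD, n = 2). In experiment 2 it was 54.7 ± 3.41 CPM in WT cDC1, where H/H cDC1 had 101 ± 11.6 and H/H hybrid cells 190 ± 15.5 CPM (SD, n = 2), with an edgeR adjusted p of 0.000825 for H/H against WT cDC1. Bin1, which encodes a MYC-interacting adaptor, was lower in WT cDC1 than in cDC2 by a factor of 3.77 and Ruvbl1, a MYC-binding ATPase, was 2.63-fold higher, both called.

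Of 55 genes known as MYC-induced, mostly of ribosome production, nucleotide synthesis and growth, 38 were higher and 2 lower in WT cDC1 than in WT cDC2, with a median log2 fold change of 0.47 against -0.07 over all genes tested. Over all 16036 genes tested 44.0% were called, 3291 higher and 3759 lower. In H/+ and H/H mice 28 and 31 were higher and 2 lower in each, where 38.3% and 36.7% of all genes were called. Ppan, a ribosome biogenesis factor, was 56.2 ± 0.17 against 18.4 ± 0.61 CPM in WT mice (SD, n = 2), and Srm, which encodes spermidine synthase, was 4.55 ± 0.84 against 1.93 ± 0.37. The 2 that were lower were Ccnd2, which encodes cyclin D2, at 15.4 ± 3.65 against 129 ± 38.0 CPM, and Tfrc, the transferrin receptor gene, at 13.6 ± 1.00 against 40.2 ± 5.79 CPM (SD, n = 2). From WT to H/H cDC1, where Mycl fell in both experiments, 1 of the 55 rose (Ccnd2) and 1 fell (Ppan) in experiment 1. In experiment 2, 0 of 55 were called by edgeR. Over all genes tested 4.17% were called in experiment 1 and 6.32% in experiment 2, so few calls separate the list from all genes. The median of the list was -0.05 in experiment 1. From H/H cDC1 to H/H hybrid cells 1 rose and 9 fell in experiment 1 and 1 rose and 5 fell in experiment 2, and from H/+ cDC1 to H/+ hybrid cells 2 rose and 11 fell, where 7.85%, 12.5% and 16.5% of all genes were called. Against cDC2, hybrid cells had 7 higher and 1 lower in H/+ mice and 9 higher and 2 lower in H/H mice. Over all genes 19.0% and 25.4% were called there, which is near the shares of the list. The list's median log2 fold changes were 0.12 and 0.19, beside -0.005 and -0.03 over all genes tested.

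Of 6 genes known as MYC-repressed, 1 was higher and 3 lower in WT cDC1 than in WT cDC2, where 44.0% of all genes were called. The cell cycle inhibitor gene Cdkn1a was 32.2 ± 1.27 against 68.9 ± 4.02 CPM and Cdkn1b was 61.2 ± 16.4 against 105 ± 13.8 (SD, n = 2). The 1 that was higher was Gadd45a, at 2.24 ± 0.17 against 0.994 ± 0.448 CPM (SD, n = 2; edgeR adjusted p = 0.0301). Cdkn1a was higher in hybrid cells than in cDC1 in H/+ mice (log2 0.68, edgeR adjusted p = 0.00527) and in H/H mice of both experiments (log2 0.77 and 0.83, edgeR adjusted p = 0.00409 and 0.000425), and was the 1 gene of the list that rose there. In the same comparisons Cdkn2b, a further cell cycle inhibitor gene, was lower in hybrid cells of H/+ mice (log2 -1.40, edgeR adjusted p = 0.00665) and of H/H mice in experiment 1 (log2 -1.32, edgeR adjusted p = 0.0188), and Ndrg1, a stress-response gene, was lower in H/+ hybrid cells (log2 -0.92, edgeR adjusted p = 0.0362). In these comparisons 16.5% of all genes were called in H/+ mice, and 7.85% and 12.5% in H/H mice of experiments 1 and 2. The list's median was -0.73 in H/+ mice and -0.37 and -0.73 in H/H mice of experiments 1 and 2. Ndrg1 also fell from 19.0 ± 1.75 to 6.64 ± 0.67 CPM between WT and H/H cDC1 of experiment 2 (SD, n = 2; edgeR adjusted p = 0.000159). Of the 2 tested targets of MondoA and ChREBP, Txnip, a thioredoxin-binding arrestin gene, was 84.8 ± 20.1 CPM in WT cDC1 against 254 ± 15.6 in WT cDC2 (SD, n = 2).

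Of 12 cell division genes, 0 rose and 11 fell in H/H Zeb2 -165D123 hybrid cells against H/H hybrid cells, with a median log2 fold change of -0.96, while the call rate over all genes was 4.03%. Mki67, the proliferation marker, was 39.5 ± 2.49 against 90.9 ± 13.9 CPM and Kif11, a mitotic kinesin gene, was 10.0 ± 1.45 against 24.6 ± 5.05 CPM (SD, n = 2). In the same comparison the members that rose were the antagonists Mxd1 and Mxi1, Myc and Mycl were not called, and of the 55 MYC-induced genes 0 were called, with a median of -0.13. The macrophage marker sum given above moved in this comparison too. In the comparisons of H/H with WT cDC1 in experiments 1 and 2, 0 of the 12 were called, where 4.17% and 6.32% of all genes were.

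**Figure D5:**
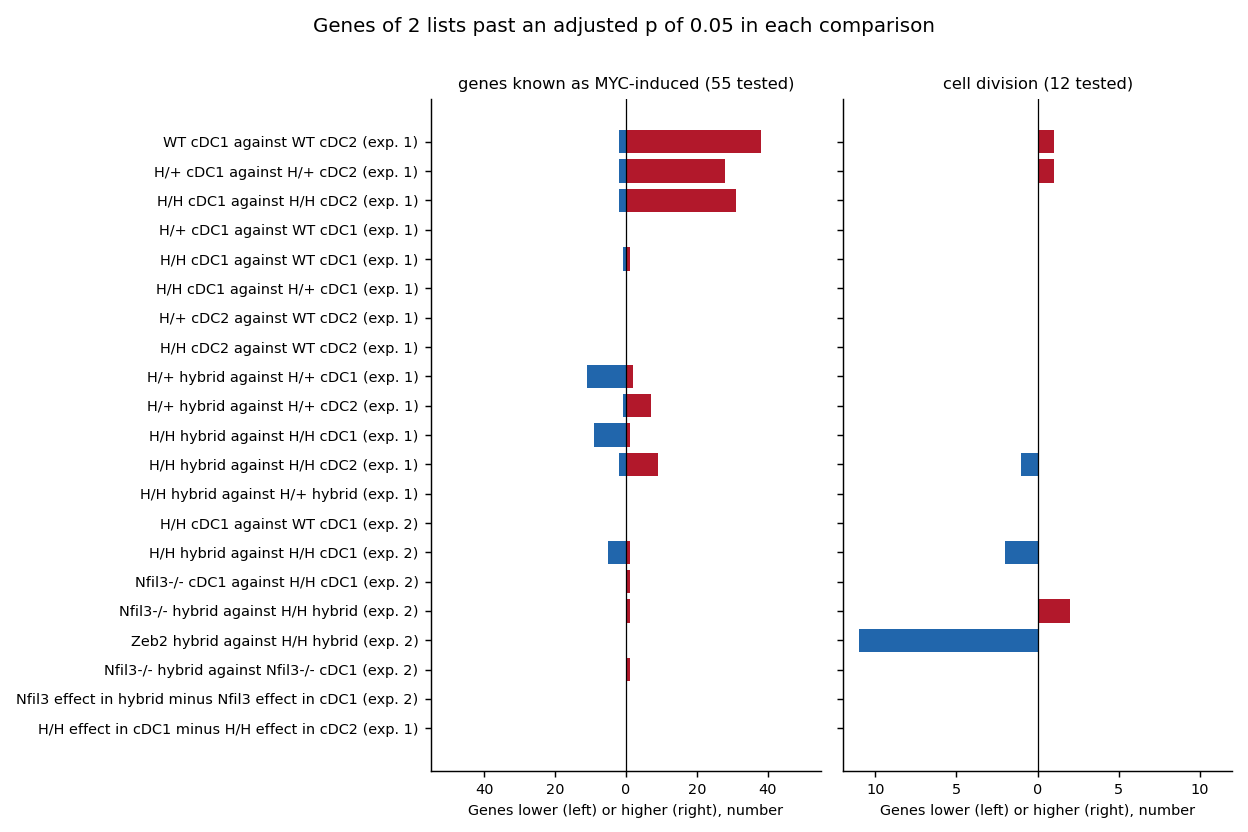
Number of genes past an edgeR adjusted p of 0.05 (horizontal axis, lower to the left in blue, higher to the right in red) in each comparison (vertical axis), for 55 genes known as MYC-induced and for 12 cell division genes. The MYC-induced genes were higher in cDC1 than in cDC2 in all 3 genotypes (38, 28 and 31 genes), and 11 of 12 cell division genes were lower in H/H Zeb2 -165D123 hybrid cells.

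The genes whose group means were most like those of Mycl over the 8 groups of experiment 1, among 1942 genes that passed in both experiments, reached 10 CPM and varied by at least 1 on the log2 scale, were Spcs2, Tfg, Chchd4, Dpagt1 and Gltp, with Pearson correlations of log2 CPM between 0.997 and 0.999. Over the 6 groups of experiment 2 the same genes had correlations with Mycl of 0.81, 0.71, 0.56, 0.59 and 0.83. Irf8 itself ranked 193 for Mycl, with 0.98 in experiment 1 and 0.99 in experiment 2. For Myc the 5 genes were Ifi44, Fgl2, Irf7, Nqo2 and Ube2l6, with correlations of 0.957 to 0.97 in experiment 1 and of 0.96, 0.71, 0.97, 0.87 and 0.96 in experiment 2. Irf8 had 0.63 with Myc in experiment 1 and -0.89 in experiment 2. These correlations describe group means of 8 and 6 points from the same libraries, where cell type sets much of the variation, and carry no test.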

How the data were processed

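Bulk RNA-seq of 28 libraries was used, 16 in experiment 1 and 12 in experiment 2, each with its own deposited table of expected counts per Ensembl gene. Per the submitters' processing notes, bcl2fastq, DRAGEN and edgeR were used by the authors. The genome build, the annotation and whether reads were counted by strand are not given in the sources used here. Of 55774 lines in each table, 287 repeated a gene with equal counts and were dropped. The deposited expected counts were not all whole (10.8% and 10.2% of values were not) and were rounded to whole numbers. Groups came from the sample titles. Genes were filtered with filterByExpr, scaled with TMM and tested with edgeR's quasi-likelihood test (edgeR 4.0.16, limma 3.58.1, R 4.3.3) over all groups of an experiment, with Benjamini-Hochberg adjustment over all genes tested and a threshold of 0.05. The residual degrees of freedom were 8 in experiment 1 and 6 in experiment 2. The fit was also tested on simulated counts with known changes. Levels per kb use the summed exon length of GENCODE M21 (GRCm38), in which 99.5% of the gene identifiers were found, and promoter windows come from RefSeq. Tables and figures were made with Python 3.11.15, pandas 2.3.3 and matplotlib 3.10.9.

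The 7 members and the gene lists were chosen with earlier results of these data known. The rule for named genes took all members, the altered genes, up to 4 called genes with the largest change per list and comparison, and the 5 genes most like Mycl and Myc. Other settings were RLE size factors, no filter on low counts, a replicate block, a term for libraries with Xist RNA, only the groups compared, both experiments in 1 fit, DESeq2 1.42.0, library totals without scaling and each library left out in turn. Leaving out a library leaves 1 in its group, which is then assumed to vary like the other groups. Intervals are 95% intervals of the fitted difference.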

Additional observations from a re-analysis of the deposited data

Results flagged for a closer look

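Myc in hybrid cells stood on different sides of cDC1 in H/+ and H/H mice of experiment 1. In H/+ mice both hybrid libraries were above both cDC1 libraries (log2 difference 0.35), and in H/H mice both hybrid libraries were below both cDC1 libraries (-0.20). The gap between these differences was 0.55 on the log2 scale, and it was not tested. Neither difference was called by edgeR on its own. The H/H direction was not repeated in experiment 2, where hybrid cells were above cDC1 by 0.25, and both experiments in 1 fit gave 0.0040.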

How the results depend on the processing

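Of the 22 called member results, 0 changed sign in any other setting, 16 were called in every setting that kept all libraries and 9 whichever library was left out. Of the 125 uncalled, 59 changed sign somewhere. RLE size factors changed no call among the results recomputed. Counts of members called moved as follows. With only the groups compared, H/+ cDC1 against cDC2 gave 1 call (2 before), WT and H/H cDC1 against cDC2 4 each (3), H/H hybrid cells against cDC2 3 (2), H/H hybrid cells against cDC1 of experiment 2 gave 2 (3) and Nfil3-/- against H/H hybrid cells 1 (0). With no filter on low counts, H/+ against WT cDC1 gave 1 (0), H/H against H/+ cDC1 gave 1 (0) and H/H against WT cDC1 of experiment 2 gave 2 (1). In DESeq2, H/+ against WT cDC1 also gave 1 and H/H cDC1 against cDC2 gave 2 (3). With both experiments in 1 fit, H/H hybrid cells against H/H cDC1 gave 3 (1 in experiment 1) and H/H against WT cDC1 gave 2 (1 in experiment 2), and Myc in the former turned from -0.20 to 0.0040. The cause was not tested.

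With 1 library left out, calls ranged from 1 to 4 for H/+ cDC1 against cDC2, 0 to 1 for H/+ against WT cDC1, 0 to 1 for H/H against WT cDC1 and 1 to 2 in experiment 2, 0 to 1 for H/H against H/+ cDC1, 0 to 3 for H/+ hybrid cells against cDC1, 1 to 2 against cDC2, 0 to 0 for H/H hybrid cells against cDC1 and 0 to 3 in experiment 2, and 0 to 2 for the Zeb2 enhancer change. Uncalled log2 differences that crossed 0 were Myc in H/+ against WT cDC1 (-0.12 to 0.37), in H/H against H/+ hybrid cells (-0.20 to 0.11) and in the difference between Nfil3 effects (-0.40 to 0.14). For Mycl they were H/H against H/+ cDC1 (-0.10 to 0.083), H/H against WT cDC2 (-0.19 to 0.20), H/H against H/+ hybrid cells (-0.017 to 0.33), Nfil3 loss in cDC1 (-0.25 to 0.078) and hybrid cells (-0.020 to 0.18), the Zeb2 change (-0.036 to 0.21) and the difference between Nfil3 effects (-0.0040 to 0.34).

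Equal replicate numbers are not shown to pair libraries. Deviations from group means correlated at 0.04 to 0.34 over 28 group pairs in experiment 1, with 24 over 0.1 and a median of 0.14, and at -0.20 to 0.23 over 15 in experiment 2. With the replicate number as a block, H/+ against WT cDC1 gave 1 call (0 without it), H/H hybrid cells against H/H cDC1 of experiment 2 gave 2 (3 without it, Mxd4 lost) and the Zeb2 enhancer change gave 1 (2 without it). In all 8 groups of experiment 1 replicate 2 held Xist RNA and replicate 1 did not, so the term for Xist libraries equals that block there, and in experiment 2 it gave 1 call for the Zeb2 enhancer change. Library totals without scaling moved 23 of 98 group levels by over 1 SD, by at most 11.2%. With 2 libraries per group, small differences in Max and Mxi1 could not be detected.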
